A study of Mus musculus with 8 samples.

Results

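The glycolysis and hypoxia-response genes are 42 genes that handle glucose, lactate and pyruvate, sense oxygen, or are switched on by the hypoxia-inducible factors (HIF). Their members were chosen by name: every gene probe on the array whose gene name was on the list was taken, which gave 73 of the 41174 gene probes and 42 of the 27745 gene names. RNA came from mouse embryonic fibroblasts (MEFs), which are cells grown out of embryos, of the strain C57BL/6J. The groups were Lats2-/- and Lats2+/+, with 1 extract of each genotype from each of 3 litters numbered 112, 116 and 121, and no treatment was given. The cells grew in DMEM with serum and antibiotics under 5% CO2 and air, so low oxygen was not a condition of the study. The 8 two-colour arrays held both extracts of a litter, with the dyes swapped between arrays, so a ratio compared littermates directly. Each culture carries a clone name, so that litter and culture cannot be told apart in any difference between litters.

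Glycolysis splits glucose into pyruvate in the cytosol, and pyruvate is then turned into lactate or carried into the mitochondria. HIF is a pair of proteins, an oxygen-sensitive alpha subunit and a stable partner. In the presence of oxygen, prolyl hydroxylases mark the alpha subunit for destruction. When oxygen is short the subunit stays, binds short DNA elements and raises glucose transporters, most glycolytic enzymes, lactate export, and genes of angiogenesis and mitophagy. Lats2 encodes a kinase of the Hippo pathway, and the comparison asks how these genes stood in cells without it.

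The DNA letters that HIF reads are shown for 4 members because their levels carry the results below: Pdk1 and Bnip3 went opposite ways in litters 112 and 116, Pgk1 had its highest signal in the Lats2+/+ extract of litter 116, as did Pdk1 and Bnip3, and Slc16a1 was lower in Lats2-/- in every litter. Each line gives the 250 bases before the gene's start in RefSeq's promoter table (GRCm38.p6), read 5′ to 3′ on the gene's strand. Capitals mark ACGTG or GCGTG on either strand, the 2 spellings of the core of a HIF response element. The windows lie at chr2:71872974-71873223 (plus strand) for Pdk1, which has a further window, chr7:138909507-138909756 (minus strand) for Bnip3, chrX:106186850-106187099 (plus strand) for Pgk1 and chr3:104638414-104638663 (plus strand) for Slc16a1.
Pdk1: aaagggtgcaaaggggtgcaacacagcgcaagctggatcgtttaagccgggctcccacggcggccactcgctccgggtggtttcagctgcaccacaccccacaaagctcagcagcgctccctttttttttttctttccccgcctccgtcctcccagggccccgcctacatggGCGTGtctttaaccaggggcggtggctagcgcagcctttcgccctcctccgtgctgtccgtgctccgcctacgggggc
Bnip3: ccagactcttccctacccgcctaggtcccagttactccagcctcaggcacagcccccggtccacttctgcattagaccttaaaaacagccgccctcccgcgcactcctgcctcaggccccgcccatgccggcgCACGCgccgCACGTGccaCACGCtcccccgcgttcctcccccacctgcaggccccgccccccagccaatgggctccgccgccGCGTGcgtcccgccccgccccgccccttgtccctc
Pgk1: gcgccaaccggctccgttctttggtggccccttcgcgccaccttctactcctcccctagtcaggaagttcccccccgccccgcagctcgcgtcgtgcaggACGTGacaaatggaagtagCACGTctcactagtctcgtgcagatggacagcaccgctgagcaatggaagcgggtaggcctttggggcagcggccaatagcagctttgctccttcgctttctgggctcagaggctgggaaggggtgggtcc
Slc16a1: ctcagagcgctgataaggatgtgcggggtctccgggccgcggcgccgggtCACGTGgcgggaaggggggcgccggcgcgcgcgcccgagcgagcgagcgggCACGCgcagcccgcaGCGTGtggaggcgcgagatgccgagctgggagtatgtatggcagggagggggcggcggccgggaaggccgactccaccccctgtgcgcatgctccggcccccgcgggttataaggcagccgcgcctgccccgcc
The Pgk1 window held 2 cores, which began 150 and 131 bases before the start. The Pdk1 window held 1, at 78 bases. The Bnip3 window held 5 matches and the Slc16a1 window 4, and in both of them 2 matches overlapped in the letters CACGTG. Of the 37 members with an entry in the table, 34 (91.9%) held a core in at least 1 window of 300 bases, which runs from 250 before to 50 after the start. The share was 46.7% of all 27025 genes with a window, and 66.9% of the 9833 such genes that also had a measured probe. Of the glycolytic members, 20 of 23 held one, and of the other HIF targets, 13 of 13. Both spellings contain CG, and the median number of CG pairs was 21 in the members' windows, 20 in windows of measured genes and 7 in all windows. Gpi1, Tpi1 and Eno2 had no such letters in their windows. A match of these letters is a description of the window and not a binding site.

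Before the members, the arrays and labels were checked. In either channel of an array, 52.9% to 61.3% of the gene probes passed the scanner software's flag for signal above background, and no gene spot was saturated. The arrays of a litter correlated at 0.917 to 0.99 (Pearson's r of log2 ratios, across probes). Of the 4 Lats2 probes, the one at chr14:56676512-56676571 (mm8, the build of the array files) was lower in Lats2-/- in all 3 litters, at -1.33 (litter 112), -1.05 (litter 116) and -0.56 (litter 121) on the log2 scale. The other 3 Lats2 probes, which lie near chr14:56644080-56645305, were lower in litters 112 and 116 but higher in the extract labelled Lats2-/- of litter 121, by 0.80 to 1.17. Where the allele is deleted is not given in the sources used here, so neither result checks the genotype by itself. The study checked the knockout in MEFs by western blotting of the protein, and these blots were not analysed here. Values without litter 121 are given for the members with an unadjusted p under 0.05, Ldha and Ero1l. All 12 fibroblast markers, such as Col1a1 and Fn1, were measured, with a median log2 ratio of 0.14, 1.95 and -1.54 in the 3 litters. Their summed signal ranged from 251070 to 619780 over the Lats2-/- extracts and from 380910 to 630190 over the Lats2+/+ extracts. Most markers of other cells were not measured. Of those on the array, 6 of 13 macrophage, 2 of 8 endothelial, 3 of 8 epithelial, 3 of 9 neural, 3 of 7 erythroid and 1 of 9 skeletal muscle markers were measured, and Ptprc, Pecam1, Cdh1 and Myod1 were not well above background in enough extracts. Some that were measured lay far from 0, with none under an adjusted limma p of 0.05: Krt19 (epithelial) had ratios of 2.42, 0.37 and 1.83, Cd14 (macrophage) -0.60, -1.64 and -0.74, and in litter 121 Lyzs (macrophage) stood at 3.40 and Nes (neural) at 4.10. The 25 proliferation markers measured had median log2 ratios of -0.58, -0.55 and 0.26. The part of these markers in the members' results was not tested, except where a value is given beside a result.

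A gene was measured when at least 1 of its probes was well above background in 2 of the 3 extracts of either genotype, and its brightest such probe stands for it. Of the 42 members, 40 were measured. The exceptions were Slc2a3, a glucose transporter, and Epas1, which encodes the HIF-2 alpha subunit. Log2 ratios are Lats2-/- over Lats2+/+, given for litters 112, 116 and 121 in that order, and log2 signals are per extract. The array measures RNA of the whole culture, so fewer cells of a type and less RNA per cell cannot be told apart.

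No member passed the adjusted threshold of 0.05 by limma's moderated test on the 3 litters, and neither did any of the 14791 measured genes (0%). At an unadjusted p under 0.05 there were 4 members of 40, beside 7.59% of all measured genes. Slc16a1, Egln3 and Eno1 were on the lower side, where 3.45% of all genes lay, and Bhlhb2 was on the higher side, where 4.14% lay. The share of members that agreed in sign was 12 of 40 lower in all 3 litters and 6 of 40 higher in all 3, beside 14.1% and 15.9% of all genes. The 12 lower members were Slc2a1, Pgk1, Pkm2, Eno1, Gpi1, Slc16a1, Ldha, Egln1, Egln3, Higd1a, Ero1l and Ddit4. For Higd1a and Gpi1 a second measured probe was above 0 in at least 1 litter. The 6 higher members were Pfkfb4, Eno3, Slc16a3, Car9, Vegfa and Bhlhb2. These are signs of litter averages, and single arrays did not always share them. Slc2a1 and Egln1 were lower on 5 of 8 arrays, Ldha and Higd1a on 6 and Pgk1 on 7. Vegfa was higher on 6 of 8 arrays, and Eno3 and Car9 on 7. The rest of these members held 1 sign on all 8 arrays. The plot of ratios by litter shows how far most members spread: the median SD over litters was 0.52 for the members and 0.27 for all measured genes.

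**Figure D1:**
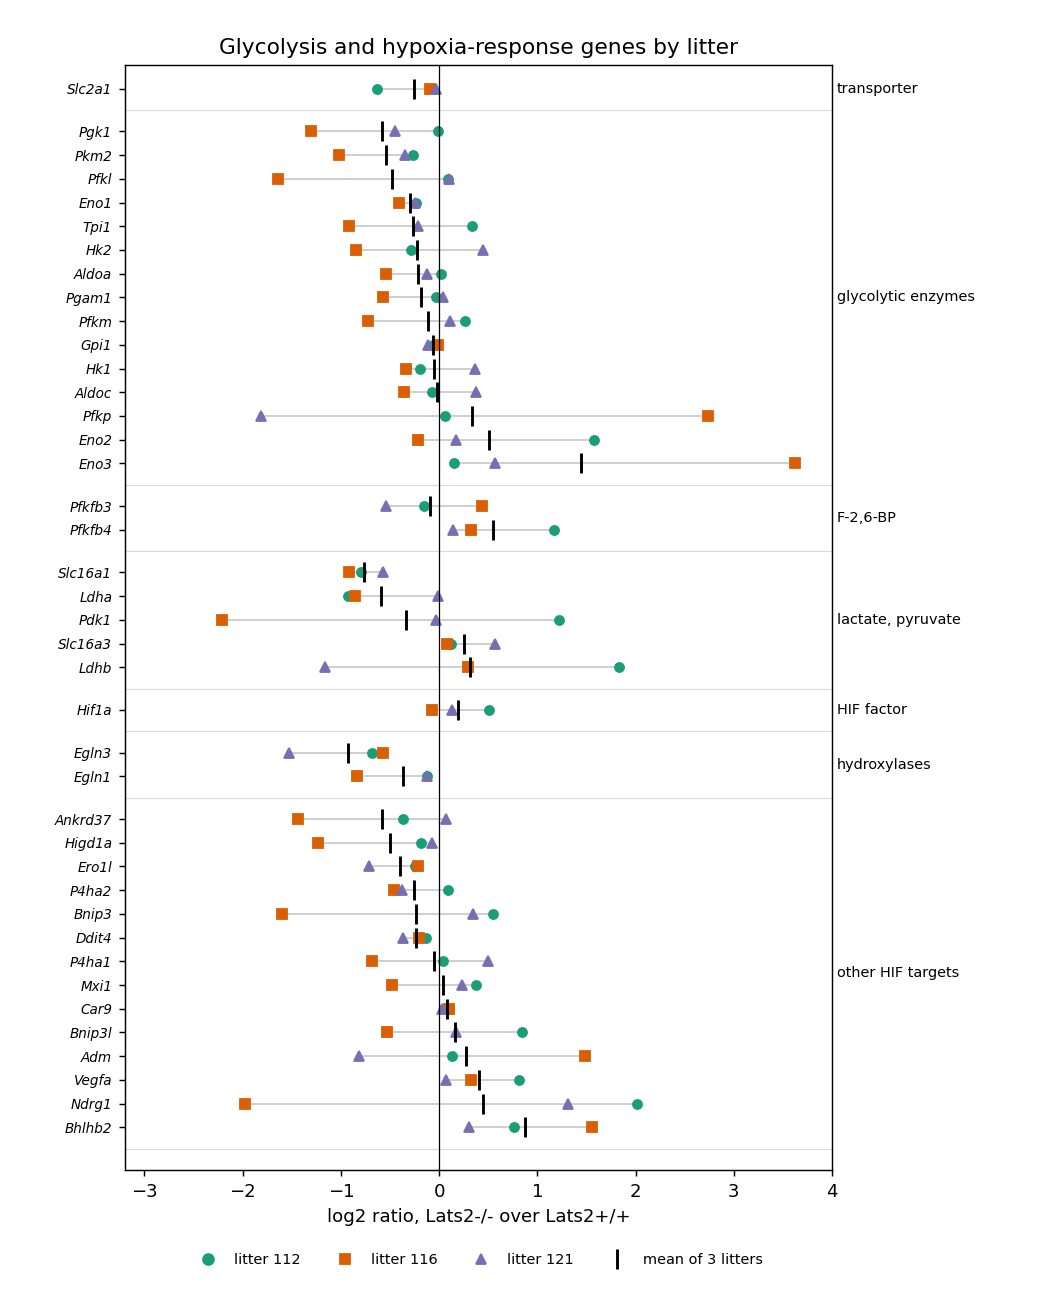
The x axis is the log2 ratio of Lats2-/- over Lats2+/+, with 1 point per litter (112, 116 and 121) and a bar for the mean of the 3 litters, for the 40 measured members grouped by role (F-2,6-BP: enzymes of fructose-2,6-bisphosphate). Litter 116 holds the lowest ratio of many members, among them Pdk1 at -2.21 and Ndrg1 at -1.97, and also the highest, Eno3 at 3.62.

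Glucose entry and the first committed steps gave no ratio past the test. Slc2a1 encodes the basal glucose transporter GLUT1. Its log2 signals were 11.67, 12.33 and 12.08 in Lats2+/+ and 11.04, 12.23 and 12.05 in Lats2-/-. The ratios were thus -0.63, -0.09 and -0.03, with a mean of -0.25 ± 0.33 (SD, n = 3; limma adjusted p = 0.773). The difference lay in litter 112, without which the mean was -0.063, and the genotypes overlapped. Of the 3 Slc2a3 probes, one was over background for Lats2+/+ of litter 116 and on no array for its Lats2-/- littermate, which makes Lats2-/- at least 1.82-fold lower in that litter alone. A further Slc2a3 probe is placed on chromosome 17 by the array files and the others on chromosome 6.

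Hk2 encodes the inducible hexokinase, which traps glucose as glucose-6-phosphate. Hk2 signals were 8.76, 9.64 and 9.96 in Lats2+/+ and 8.47, 8.80 and 10.41 in Lats2-/-. Its ratios of -0.29, -0.84 and 0.45 averaged -0.23 ± 0.65 (SD, n = 3; limma adjusted p = 0.88), and without litter 116 the mean was 0.08. Litter 121 was the high one in both genotypes. Hk1, the housekeeping hexokinase, ranged from -0.34 to 0.37, and Gpi1, which turns glucose-6-phosphate into fructose-6-phosphate, stayed between -0.11 and -0.02 in every litter.

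The phosphofructokinase genes, whose product carries out the first committed step, did not move as one. Pfkl, the liver form, had signals of 9.43, 11.13 and 9.38 in Lats2+/+ against 9.53, 9.50 and 9.48 in Lats2-/-. Only the Lats2+/+ extract of litter 116 stood apart, and the ratios were 0.09, -1.64 and 0.10. Pfkp, the platelet form, went the other way in that litter, with ratios of 0.06, 2.74 and -1.81. The 3 measured Pfkp probes held the same signs in litters 116 and 121 but differed in size, by up to 2.31 within a litter. Pfkm, the muscle form, had ratios of 0.27, -0.72 and 0.11. Pfkfb4 makes and breaks down fructose-2,6-bisphosphate, the activator of phosphofructokinase. Its signals of 8.25, 8.42 and 8.54 in Lats2+/+ all lay below the 9.42, 8.75 and 8.68 in Lats2-/-. The ratios of 1.17, 0.33 and 0.14 averaged 0.55 ± 0.54 (SD, n = 3; limma adjusted p = 0.726, unadjusted 0.0936), and the mean was 0.24 without litter 112. The related Pfkfb3 ranged from -0.54 to 0.43.

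In the steps that yield ATP and those beside them most ratios were below 0, with the largest distances in litter 116. Pgk1 encodes phosphoglycerate kinase, the first enzyme of glycolysis that yields ATP. Its signals were 14.47, 15.34 and 14.40 in Lats2+/+ and 14.46, 14.03 and 13.96 in Lats2-/-. The Lats2+/+ extract of litter 116 was the highest of the 6. The ratios of -0.01, -1.30 and -0.44 averaged -0.59 ± 0.66 (SD, n = 3; limma adjusted p = 0.739), and the mean was -0.23 without litter 116. Tpi1, Aldoa and Pgam1, which act in steps close to this one, had ratios of -0.92, -0.54 and -0.57 in litter 116 and between -0.21 and 0.33 in the other litters. Aldoc, the brain aldolase, was dim and ranged from -0.36 to 0.38.

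The enolase genes differed from each other. Eno1, the enolase that most tissues use, had signals of 12.28, 12.18 and 11.96 in Lats2+/+ and 12.04, 11.77 and 11.72 in Lats2-/-. Each litter gave a lower value in Lats2-/-, on 8 of 8 arrays, although the genotypes overlapped across litters. Its ratios of -0.23, -0.41 and -0.24 averaged -0.29 ± 0.10 (SD, n = 3; 1.23-fold; limma adjusted p = 0.711, unadjusted 0.0485). Leaving out any 1 litter gave a mean between -0.32 and -0.24 and an unadjusted limma p of 0.127 to 0.156. The unadjusted p was also above the threshold with a normexp offset of 16 (limma, 0.0829), the processed signals (0.0963), median centring (0.0548) and the filter on all 6 extracts (0.0563). Eno2, the neuronal enolase, had ratios of 1.57, -0.22 and 0.18.

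Eno3, the muscle enolase, had the highest mean of all members. Its signals were 11.83, 8.82 and 11.44 in Lats2+/+ and 11.98, 12.44 and 12.01 in Lats2-/-. A single low extract, Lats2+/+ of litter 116, set the mean ratio of 1.44 ± 1.89 (SD, n = 3; limma adjusted p = 0.754); without that litter it was 0.36. The one skeletal muscle marker measured, Actc1, had ratios of -0.41, 3.37 and 0.55 in the same litters, and the other 8 on the array were not measured. The part of muscle-type cells in the Eno3 ratio was not tested.

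Pkm2 names the gene of pyruvate kinase, which makes pyruvate and has muscle and fetal splice forms that these values do not separate. The brightest of its 3 probes gave 14.87, 14.85 and 14.15 in Lats2+/+ and 14.60, 13.84 and 13.80 in Lats2-/-. The ratios of -0.26, -1.02 and -0.35 averaged -0.54 ± 0.41 (SD, n = 3; limma adjusted p = 0.711, unadjusted 0.0535), and the mean was -0.30 without litter 116. The other 2 probes had means of -0.67 and -1.03, with unadjusted limma p of 0.0111 and 0.0301. All 3 probes were below 0 in every litter, and they differed by up to 1.37 in litter 112.

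Slc16a1 had the lowest unadjusted p of the members. It encodes MCT1, a transporter that carries lactate and pyruvate across the cell membrane. Its signals were 10.90, 11.95 and 10.01 in Lats2+/+ and 10.11, 11.04 and 9.44 in Lats2-/-. Each litter had its own level, and in each the Lats2-/- extract was lower, on 8 of 8 arrays. The ratios of -0.80, -0.92 and -0.57 averaged -0.76 ± 0.17 (SD, n = 3; 1.7-fold lower; limma adjusted p = 0.711, unadjusted 0.00354). The probe lies at chr3:104786079-104786138 (mm8, plus strand), with no exon or UTR assigned, since no annotation of that build was used. Of the 2 other Slc16a1 probes, the one beside it gave a mean of -0.66 and one further upstream, at chr3:104782221-104782280, gave -0.23, again below 0 in every litter. The mean was -0.86 without litter 121.

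Slc16a3, which encodes the lactate exporter MCT4 and is a known HIF target, was dim, with ratios of 0.13, 0.08 and 0.57. Ldha, the lactate dehydrogenase subunit that favours lactate production, had signals of 15.30, 15.85 and 14.90 in Lats2+/+ and 14.37, 14.99 and 14.90 in Lats2-/-. Its ratios of -0.93, -0.85 and -0.01 averaged -0.60 ± 0.51 (SD, n = 3; limma adjusted p = 0.715, unadjusted 0.0651). Litters 112 and 116 carried this difference, and without litter 121 it averaged -0.89 (limma adjusted p = 0.733, unadjusted 0.00872). Ldhb, the other subunit, had no common direction, with 1.83, 0.29 and -1.17.

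Pdk1 had opposite signs in litters 112 and 116. It encodes a mitochondrial kinase that shuts down pyruvate dehydrogenase, so that less pyruvate becomes acetyl-CoA, and is a standard HIF target. Its signals were 7.60, 10.41 and 8.05 in Lats2+/+ and 8.82, 8.20 and 8.02 in Lats2-/-. The Lats2+/+ extract of litter 116 was the highest and that of litter 112 the lowest, with the Lats2-/- extracts between them. The ratios of 1.22, -2.21 and -0.03 averaged -0.34 ± 1.74 (SD, n = 3; limma adjusted p = 0.939), and the mean was 0.59 without litter 116. The 2 arrays of a litter gave nearly the same value, 1.24 and 1.20 in litter 112 and -2.22 and -2.21 in litter 116. A further Pdk1 probe gave 1.51, -2.97 and 0.20.

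Among the factors and sensors, Hif1a, the HIF-1 alpha subunit, is mainly set by protein stability. Its RNA signals were 9.53, 10.21 and 10.29 in Lats2+/+ and 10.04, 10.14 and 10.42 in Lats2-/-. The ratios of 0.51, -0.07 and 0.13 averaged 0.19 ± 0.29 (SD, n = 3; limma adjusted p = 0.811), with 0.029 left without litter 112, and the genotypes overlapped. Of the 2 Epas1 probes, both cleared background only in Lats2-/- cells of litter 121, where the brighter one was at least 1.69-fold higher than in the Lats2+/+ littermate.

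Egln3 encodes a HIF prolyl hydroxylase that is itself raised by HIF. Its signals were 7.59, 7.23 and 7.58 in Lats2+/+ and 6.91, 6.66 and 6.05 in Lats2-/-, so the genotypes did not overlap. The ratios of -0.68, -0.57 and -1.53 averaged -0.93 ± 0.52 (SD, n = 3; 1.9-fold lower), the lowest mean of the members (limma adjusted p = 0.711, unadjusted 0.0192). In litter 121 the Lats2-/- signal was not well above background on any array, so that the ratio there is a bound of at least 2.78-fold lower, and the mean, SD and p rest on a value near the floor. The mean moved with the background correction, to -1.34 when normexp was run at an offset of 16, and to -2.64 in both the processed signals and the deposited table. Without that litter it was -0.63, with an unadjusted limma p of 0.0242, and without litter 112 the unadjusted limma p was 0.0503. Egln1, the hydroxylase that sets the normal oxygen response, had ratios of -0.12, -0.84 and -0.13.

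**Figure D2:**
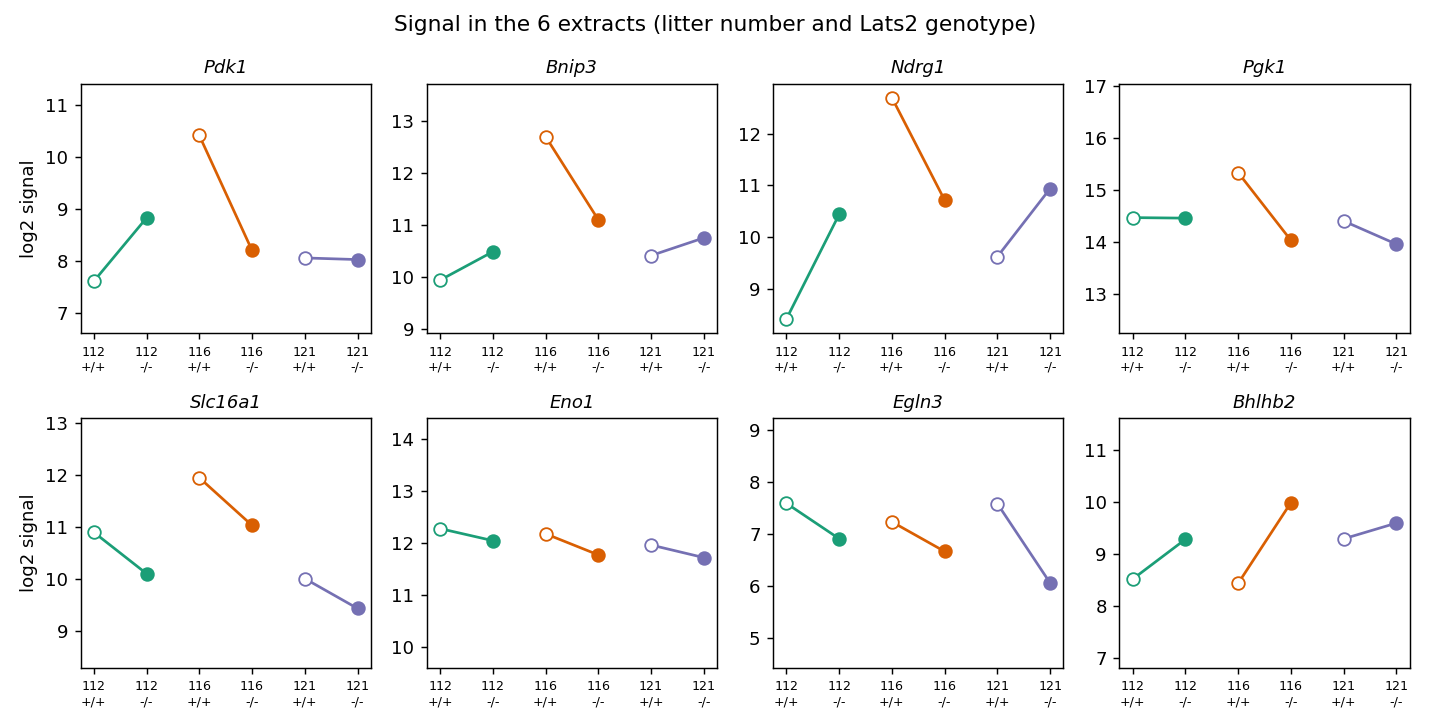
Each panel is 1 gene, the y axis is the log2 signal over a span of equal height in every panel, and each line joins the Lats2+/+ (open) and Lats2-/- (filled) extract of 1 litter. Slc16a1, Eno1 and Egln3 slope down and Bhlhb2 slopes up in all 3 litters, whereas Pdk1, Bnip3 and Ndrg1 have their highest signal in the Lats2+/+ extract of litter 116 and slope up in litter 112.

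Among the remaining HIF targets, Bhlhb2 was higher in Lats2-/- in all 3 litters. Bhlhb2 encodes a basic helix-loop-helix repressor (current symbol Bhlhe40) that responds to hypoxia and to the clock. Its signals of 8.52, 8.44 and 9.29 in Lats2+/+ were each below those of their Lats2-/- littermates, 9.29, 9.99 and 9.60, on 8 of 8 arrays. Across litters the genotypes overlapped narrowly, the highest Lats2+/+ signal being close to the lowest Lats2-/- one. The ratios of 0.77, 1.55 and 0.30 averaged 0.87 ± 0.63 (SD, n = 3; 1.83-fold; limma adjusted p = 0.711, unadjusted 0.0377). The mean was 1.16 without litter 121 (unadjusted limma p 0.0219), 0.93 without litter 112 (0.108) and 0.53 without litter 116 (0.0674).

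Vegfa encodes the main angiogenic growth factor. Its signals were 8.73, 10.72 and 10.39 in Lats2+/+ and 9.54, 11.05 and 10.47 in Lats2-/-. The ratios of 0.81, 0.33 and 0.07 averaged 0.40 ± 0.37 (SD, n = 3; limma adjusted p = 0.726, unadjusted 0.0937), and the mean was 0.20 without litter 112. The other 2 Vegfa probes had means of 0.36 and 0.58 and were above 0 in each litter as well. Adm, the vasodilator peptide adrenomedullin, had ratios of 0.13, 1.49 and -0.81 with no common direction.

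Bnip3, a mitophagy receptor of the outer mitochondrial membrane, had its highest and its lowest signal in the same extracts as Pdk1. The order of the extracts between them differed. Its signals were 9.93, 12.70 and 10.40 in Lats2+/+ and 10.48, 11.09 and 10.74 in Lats2-/-. The Lats2+/+ extract of litter 116 was again the highest. The ratios of 0.55, -1.60 and 0.34 averaged -0.24 ± 1.19 (SD, n = 3; limma adjusted p = 0.939), and without litter 116 the mean turned to 0.44. Its relative Bnip3l had 0.84, -0.53 and 0.17.

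Ndrg1, a stress-response gene strongly raised by hypoxia, spread furthest of these, from signals of 8.43, 12.69 and 9.63 in Lats2+/+ to 10.44, 10.72 and 10.94 in Lats2-/-. The Lats2+/+ extracts held both the highest and the 2 lowest values. Its ratios of 2.01, -1.97 and 1.31 averaged 0.45 ± 2.13 (SD, n = 3; limma adjusted p = 0.933, unadjusted 0.641). The mean was -0.33 without litter 112 (unadjusted limma p 0.761) and 1.66 without litter 116 (unadjusted limma p 0.00756, adjusted 0.834).

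Ankrd37, an ankyrin repeat protein, and Higd1a, a mitochondrial protein, had their lowest ratios in litter 116 as well, at -1.44 and -1.24, and -0.37 to 0.07 in the other litters. Ero1l, which oxidises disulfides in the endoplasmic reticulum, had -0.25, -0.22 and -0.72, with a mean of -0.39 ± 0.28 (SD, n = 3; limma adjusted p = 0.711, unadjusted 0.0612). Without litter 121 it averaged -0.23, and the unadjusted limma p was 0.21. A second Ero1l probe had its lowest ratio in litter 116 instead, with -0.30, -0.90 and -0.25. Its mean was -0.48 (unadjusted limma p 0.0556). Ddit4, an inhibitor of mTOR signalling, had -0.13, -0.21 and -0.37. The collagen prolyl hydroxylase subunits P4ha1 and P4ha2 and the MYC antagonist Mxi1 had mixed signs, between -0.68 and 0.50. Car9, the carbonic anhydrase that is often used as a hypoxia marker, was dim, with signals of 6.42 to 6.59 over the 6 extracts and ratios of 0.03 to 0.10.

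The extract with the highest signal was counted for each member. The Lats2+/+ extract of litter 116 held the highest signal of 21 of the 40 members (52.5%), beside 17.3% of all measured genes. These were 12 of the 23 glycolytic members and 9 of the 16 other HIF targets. The median member lay 0.41 above its own mean over the 6 extracts there, and between -0.15 and 0.05 in the other 5 extracts. The 12 glycolytic members were Slc2a1, Pgk1, Pfkl, Tpi1, Aldoa, Pgam1, Pfkm, Gpi1, Aldoc, Slc16a1, Ldha and Pdk1. The 9 others were Ankrd37, Higd1a, Ero1l, Bnip3, Ddit4, P4ha1, Mxi1, Bnip3l and Ndrg1. Hk2 and Vegfa were not among them, and neither were the enolase genes or the HIF prolyl hydroxylases. The Lats2-/- extract of litter 121 and the Lats2+/+ extract of litter 112 held the lowest signal of 12 members each (30%), beside 23.4% and 16.1% of all genes.

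**Figure D3:**
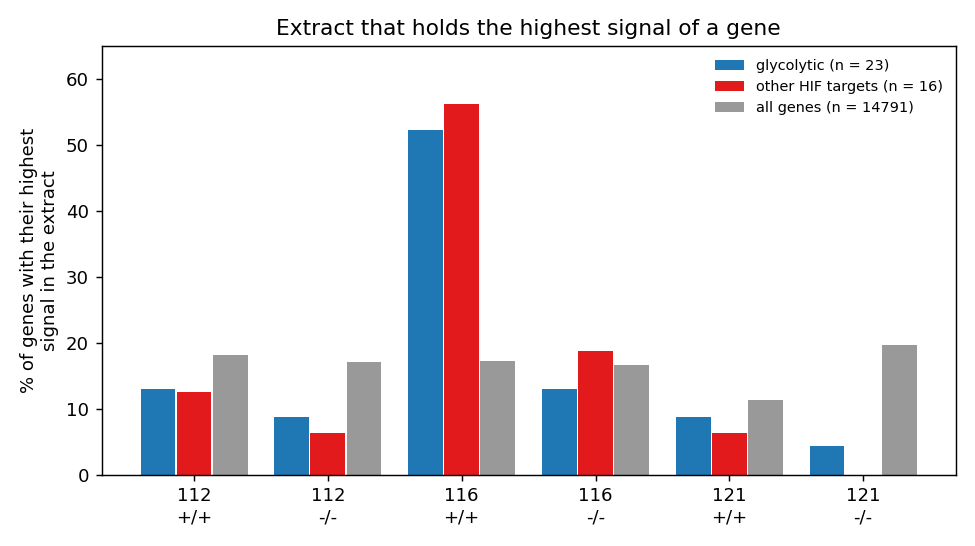
Bars give the percentage of genes whose highest signal was in each extract (x axis: litter number and Lats2 genotype), for the 23 glycolytic members, the 16 other HIF targets and all 14791 measured genes. The Lats2+/+ extract of litter 116 held 52.2% and 56.2% of the members' highest signals and 17.3% of those of all genes.

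Litter by litter, the members lay furthest from 0 on the lower side in litter 116. At least 2-fold lower in Lats2-/- of that litter were 8 of 40 members (Pgk1, Pkm2, Pfkl, Pdk1, Ankrd37, Higd1a, Bnip3 and Ndrg1), beside 3.68% of all genes. At least 2-fold higher were 4 (Pfkp, Eno3, Adm and Bhlhb2), beside 5.55%. In litter 112 the balance was the reverse, with no member at least 2-fold lower (all genes 1.46%) and 5 at least 2-fold higher (Pfkfb4, Eno2, Pdk1, Ldhb and Ndrg1; all genes 3.15%). In litter 121, Pfkp, Ldhb and Egln3 were at least 2-fold lower (all genes 3.23%) and Ndrg1 alone at least 2-fold higher (all genes 4.04%). Pdk1 and Ndrg1 stand in the higher group of litter 112 and in the lower group of litter 116. Repeat hybridisations of the same extracts, which measure technical error alone, gave a median SD of a member's ratios of 0.11 in litters 112 and 116 and 0.088 in litter 121. Some members spread more between arrays. In litters 112, 116 and 121 this SD was 0.45, 0.52 and 0.33 for Ldha. It was 0.28, 0.36 and 0.30 for Slc2a1 and 0.34, 0.35 and 0.25 for Egln1.

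The glycolytic members and the other HIF targets were then set side by side. The median log2 ratio of the 23 glycolytic members was -0.19, with litter medians of -0.01, -0.41 and -0.03. The median of the 16 other HIF targets, hydroxylases included, was -0.14, with litter medians of 0.09, -0.50 and 0.05. Over all measured genes the median was 0.01, and 0.02, 0.01 and 0.01 by litter. The glycolytic median minus that of the other targets was -0.10, 0.10 and -0.08, on average -0.03 ± 0.11 (SD, n = 3). Both groups lay clearly below the median of all genes in litter 116 and near it in litters 112 and 121, and the distance between them was within the spread over litters. These medians are descriptions with no test, since the members were chosen with earlier results of the data known.

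**Figure D4:**
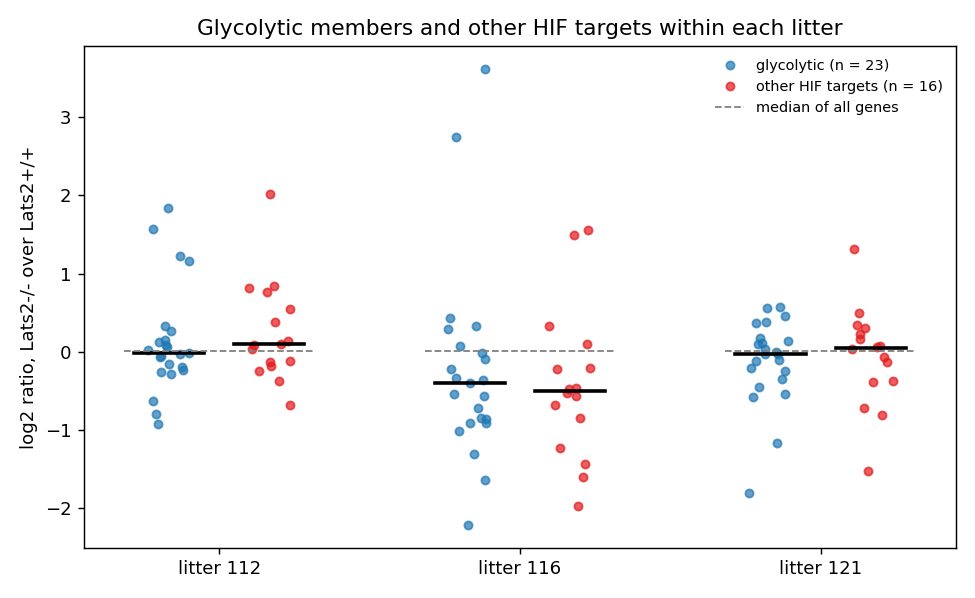
The y axis is the log2 ratio of Lats2-/- over Lats2+/+, and each point is 1 member, with glycolytic members and other HIF targets side by side within each litter, black bars for their medians and a dashed line for the median of all measured genes. The medians sit at -0.41 and -0.50 in litter 116 and between -0.03 and 0.09 in litters 112 and 121.

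Across the 40 members, the ratios of litters 112 and 116 correlated at r = 0.00 (Pearson; Spearman's rho 0.19), those of 112 and 121 at 0.27 and those of 116 and 121 at -0.26. Over all measured genes the same r were 0.13, 0.06 and 0.00. Among the 16 other HIF targets r was 0.77 between litters 112 and 121, and -0.09 and -0.37 between litter 116 and those litters. Among the 23 glycolytic members r was -0.10 between litters 112 and 121, and 0.05 and -0.20 between litter 116 and those litters. Members are not independent of each other within a litter, and the ratios of a litter share its 2 extracts, so no p is given.

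The wider pathway was taken from lists of further genes. Of 30 measured genes of other glycolysis and pyruvate steps, 1 lay at an unadjusted limma p under 0.05 on each side. Over all measured genes the shares were 3.45% on the lower and 4.14% on the higher side. The 2 genes were Dlat, a subunit of pyruvate dehydrogenase, with a mean of -0.43, and the glucose transporter gene Slc2a6 with 0.43. The lowest means of that list after Dlat were those of Slc2a10 (-0.34) and Pck2 (-0.33), and the highest were those of Bpgm (0.63), Slc2a6 and Pgm2 (0.38). Bpgm had no common direction, with ratios of -0.74, 0.94 and 1.70. No gene of that list had an adjusted p under 0.05.

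Of 38 measured genes of the HIF pathway and its response, 1 was on the lower side at that unadjusted level, beside 3.45% of all measured genes. On the higher side lay 3, beside 4.14% of all measured genes. Among these were Cited2, a competitor of HIF for its coactivator, with ratios of 0.60, 0.72 and 1.25, and Tceb2 (elongin B), with a mean of 0.30. The lower one was Stc2, with -0.81, -2.12 and -0.84. Loxl2 (2.16) and Edn1 (1.28) were among the highest means, and Tfrc (-0.73) and Flt1 (-0.71) the lowest beside Stc2. The litters differed widely in these genes. The ratios were 2.29, 4.19 and -0.01 for Loxl2 and 0.13, 0.54 and 3.16 for Edn1. For Tfrc they were -0.79, -1.32 and -0.08, and for Flt1 -0.73, 1.64 and -3.05. The median over this list was 0.09, and its litter medians of 0.15, 0.08 and 0.07 did not dip in litter 116 as those of the members did. Of 11 measured pentose phosphate genes, Prps1 alone lay at that level, with a mean of -0.63, beside 7.59% of all measured genes. Rpe (-0.25) and Pgd (-0.11) were the next lowest, and Prps2 (0.25), H6pd (0.18) and Rpia (0.10) the highest.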

How the data were processed

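Scanner files of 8 Agilent arrays (design 14868) and a value table were used. The authors extracted the scans with Agilent Feature Extraction (10.5.1.1 per the labels, 10.7.3.1 in the headers). Scanner files as deposited hold mean spot intensity and local background intensity, not normalized, processed intensity after background subtraction and dye normalization, and spot flags. They and the deposited table also hold log10 ratios, and the table differed from the turned scanner log10 ratios by at most 0.005, so it is Lats2-/- over Lats2+/+.

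Background was corrected by normexp (offset 50) on the mean intensities, control spots and 860 outlier spots were left out, and arrays were normalized by loess in limma 3.58.1 (R 4.3.3). Arrays hybridise the same 2 extracts within a litter, so they were averaged over both dye orientations to 3 litters, which pair the genotypes. Extract signals followed Aquantile scaling. Probes well above background in at least 2 of 3 extracts of either genotype were kept (22642), an extract needing most of its arrays. Ratios were tested against 0 with limma's moderated test, two-sided, and p-values were adjusted by Benjamini-Hochberg over these probes. Only 3 litters limit the precision, and p-values measure the spread between these litters. Bounds for a probe not well above background on any array of an extract were taken against the higher of the lowest well-measured signal and its own signal. The code was tested on simulated data.

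Members and lists were chosen with earlier results of these data known. All members are named. Described in full were 10 pathway nodes, members with an unadjusted p under 0.05, members with 1 sign in 3 litters and a mean of at least 0.5 in size, and the 3 highest and 3 lowest means. Genes of the other lists were named when under the same unadjusted p or among the 3 highest or lowest. Litters 112 and 116 lay on slide 1 and litter 121 on slide 2. Alternatives covered background correction, normalization, the filter, probe choice, each litter left out, blocks, and the methods' t-test. Some genes of the other lists are not reported here.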

Additional observations from a re-analysis of the deposited data

How the results depend on the processing

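Ratios of the members that the rule above describes in full kept their sign under every alternative that measured them (Egln3 was not measured when all 6 extracts had to be above background), with exceptions only when litter 116 was left out: over the settings that leave out 1 litter, Pdk1 ranged from -1.12 to 0.59, Bnip3 from -0.63 to 0.44 and Hk2 from -0.57 to 0.0813. The median of the glycolytic members ranged from -0.26 to 0.0605 there (0.0605 without litter 116). That of the other HIF targets ranged from -0.31 to -0.0284. The count of members of 1 sign ranged from 22 to 28 beside 18 (over 2 litters in place of 3). The members at an unadjusted p under 0.05 ranged from 1 (without litter 112) to 4, and the probes at that level from 1145 to 1458 beside 1549. No filter on dim probes gave 2623 such probes.

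The pairing of the genotypes by litter mattered for the counts. No replicate block (6 extracts in 2 unpaired groups) gave 554 probes and 2 members (Bhlhb2 and Egln3) at that level, and the methods' t-test gave 2 members (Eno1 and Slc16a1). Fits that used all 8 arrays gave more. Litter as a random replicate block gave 2999 probes and 9 members unadjusted and 341 probes adjusted; with a dye term, 2852, 12 and 202. Slide as a random block, which counts arrays of the same extracts as replicates, gave 4029 and 8 unadjusted and 717 probes and 3 members adjusted. These were Slc16a1 (limma adjusted p = 0.00947), Egln3 (0.0135) and Ero1l (0.0448), whose adjusted p reached 0.9997 at the other end of the alternatives. No other fit gave an adjusted call of a member. Within slide 1, which is litters 112 and 116, the values are those without litter 121 in the text above; slide 2 holds litter 121 alone. Dim members (Aldoc, Car9, Slc16a3 and Egln3) lie near background, where offsets compress ratios.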
